A study of Mus musculus with 7 samples.

Results

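Antibody transcripts were measured in the livers of C57BL/6 mice with high (H-TBA) or low (L-TBA) total bile acids. The immunoglobulin genes were taken as every row of the gene table whose mouse symbol begins with Igh, Igk, Iglc, Iglv or Iglj, together with Jchain and without Ighmbp2, a helicase gene that shares only the prefix. This gave 108 of the 37620 rows: 89 variable (V) segments, 9 joining (J) segments of the heavy and kappa loci, 1 diversity segment, 4 IgG heavy constant genes, and Ighm, Ighe, Igkc, Iglc2 and Jchain. Of the 108, 84 had at least 1 count in some library and 24 had none. The rule matched 394 symbols in the annotation used for names, and genes without a row under such a symbol, Igha, Ighd, Iglc1 and Iglc3 among them, were not analysed here.

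All 7 libraries were bulk RNA-seq of whole flash-frozen liver from mice kept for 30 weeks on a Western diet, 4 from H-TBA mice and 3 from L-TBA mice. Sex and age were not given in the labels used here, and no library from mice on another diet was analysed. The series title sets the study in spontaneous cholemia, bile acids in the blood without an experimental cause, and its relation to liver cancer in steatohepatitis. Whether the libraries of a group came from different animals is not stated, so every p-value below measures the spread between libraries, which may be technical in part. Library totals were 9996990 to 11488951 counts in the H-TBA group and 10973114 to 12152613 in the L-TBA group.

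An antibody is built from paired heavy and light chains, and each chain joins a variable domain, which meets the antigen, to a constant domain, which sets the class. A B cell assembles its V segment with D and J segments once, then starts with the IgM constant gene Ighm and can switch to an IgG gene such as Ighg1 or Ighg2c, or to IgA or IgE. Light chains are kappa (Igkc) or lambda (Iglc genes), and most mouse antibodies use kappa. Plasma cells secrete antibody in quantity, and the J chain (Jchain) links IgM pentamers and IgA dimers. Hepatocytes do not rearrange these genes, so in liver such transcripts are taken to come from resident or circulating cells of the B lineage.

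V segments with counts mostly in 1 library, and the lambda segments, are shown first beside their near copies, because the results on V usage turn on which segment a read was given to. The sequences are the last 240 coding bases of the germline segments from the GENCODE M21 transcripts (build GRCm38), 5′ to 3′. In each pair, capitals mark the positions at which the segment differs from the other, and the last segment is marked against Igkv2-137, its closest relative among the Igk segments. Igkv6-20 had the most counts of the V segments with a symbol, and Igkv6-29 differs from it at 5 of 347 coding positions (98.6% identity), all 5 within the stretch shown; both lie on chromosome 6.
Igkv6-20: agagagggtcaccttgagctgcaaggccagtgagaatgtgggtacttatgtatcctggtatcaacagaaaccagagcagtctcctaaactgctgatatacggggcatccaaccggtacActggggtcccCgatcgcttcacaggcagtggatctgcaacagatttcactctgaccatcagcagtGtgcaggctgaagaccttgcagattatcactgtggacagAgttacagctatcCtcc
Igkv6-29: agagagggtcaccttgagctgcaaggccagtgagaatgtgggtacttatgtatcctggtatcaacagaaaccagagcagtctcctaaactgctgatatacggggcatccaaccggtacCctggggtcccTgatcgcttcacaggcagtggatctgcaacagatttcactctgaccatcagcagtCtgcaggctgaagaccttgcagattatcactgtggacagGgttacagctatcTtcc
Ighv14-4 led the heavy chain segments with a symbol. Its closest relative on chromosome 12, Ighv14-1, differs at 9 of 351 positions (97.4% identity), 7 of them shown. Ighv14-1 was not among the 108 genes.
Ighv14-4: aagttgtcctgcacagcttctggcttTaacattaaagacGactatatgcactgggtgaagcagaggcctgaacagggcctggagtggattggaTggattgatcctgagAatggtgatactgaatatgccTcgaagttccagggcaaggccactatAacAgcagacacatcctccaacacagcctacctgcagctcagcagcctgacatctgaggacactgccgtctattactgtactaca
Ighv14-1: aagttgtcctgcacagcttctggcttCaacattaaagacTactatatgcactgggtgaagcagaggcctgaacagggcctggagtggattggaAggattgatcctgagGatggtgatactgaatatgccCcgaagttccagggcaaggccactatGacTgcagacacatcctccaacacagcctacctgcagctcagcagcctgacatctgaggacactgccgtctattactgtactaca
Iglv1 and Iglv2, lambda segments on chromosome 16, differ at 11 of 351 positions (96.9% identity), 6 of them shown.
Iglv1: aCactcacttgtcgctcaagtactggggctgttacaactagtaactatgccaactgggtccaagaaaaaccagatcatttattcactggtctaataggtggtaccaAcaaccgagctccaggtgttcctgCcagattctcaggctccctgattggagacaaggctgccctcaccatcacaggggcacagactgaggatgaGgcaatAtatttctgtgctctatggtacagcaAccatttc
Iglv2: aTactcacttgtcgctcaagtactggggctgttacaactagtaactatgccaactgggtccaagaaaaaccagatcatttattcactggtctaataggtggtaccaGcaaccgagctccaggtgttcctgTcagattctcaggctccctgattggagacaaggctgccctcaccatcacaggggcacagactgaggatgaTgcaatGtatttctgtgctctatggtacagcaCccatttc
Igkv2-112, on chromosome 6, was read in a single library, and stands further from its closest relative, Igkv2-137, with 83.1% identity.
Igkv2-112: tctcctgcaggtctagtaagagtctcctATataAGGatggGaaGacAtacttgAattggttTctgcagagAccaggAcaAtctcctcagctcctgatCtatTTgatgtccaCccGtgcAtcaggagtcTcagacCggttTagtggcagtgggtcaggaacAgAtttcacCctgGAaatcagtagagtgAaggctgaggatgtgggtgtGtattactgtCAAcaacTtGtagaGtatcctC
Identities were computed among 213 germline segments, 110 of Igh, 100 of Igk and 3 of Igl. Where copies are this close, short reads can be split between them or lost, so counts of Igkv6-20, Igkv6-29, Ighv14-4, Iglv1 and Iglv2 are uncertain at the level of the single segment. Rearranged genes of B cells also carry mutations, which these germline sequences do not show.

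Summed over all 108 genes, 1 library stood far above the rest. The H-TBA libraries 1 to 4 had 89.3, 34.7, 118 and 51.5 CPM (counts relative to library size, scaled with edgeR's trimmed mean of M values), and the L-TBA libraries 1 to 3 had 73.1, 139 and 969 CPM. L-TBA 3 was 7.0 times the next library, L-TBA 2, and the other 6 libraries overlapped between the groups. In raw counts these sums were 956, 355, 1449 and 636 in H-TBA livers and 846, 1544 and 9677 in L-TBA livers. The group means were 73.3 ± 37.4 CPM in H-TBA livers and 394 ± 500 CPM in L-TBA livers (SD, n = 4 and 3), so the SD of the L-TBA group was larger than its mean. The ratio of the H-TBA mean to the L-TBA mean was 0.186, and 0.693 without L-TBA 3. In bulk tissue, fewer cells of a type and less RNA per cell cannot be told apart.

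**Figure D1:**
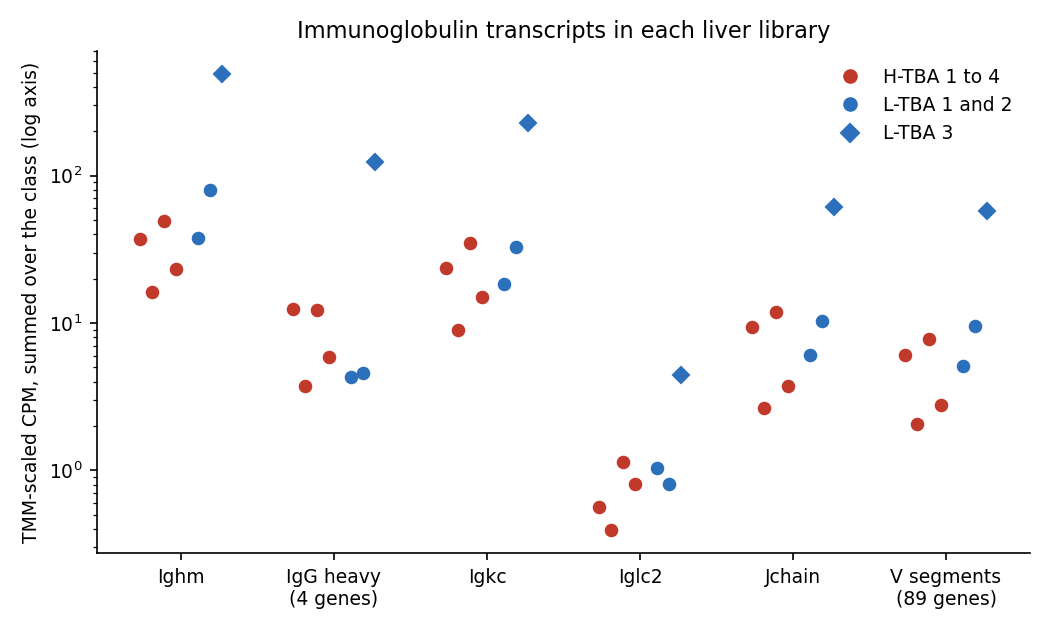
Summed level of Ighm, the IgG genes, Igkc, Iglc2, Jchain and all V segments (CPM, log axis) in each of the 4 H-TBA and 3 L-TBA libraries; each point is 1 library. L-TBA 3 lies highest in each of these sums, and in each the other 6 libraries overlap between the groups.

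Among all genes, edgeR's quasi-likelihood test with Benjamini-Hochberg adjustment called 23.9% of the 15249 tested genes at an adjusted p below 0.05, 13.1% higher and 10.7% lower in H-TBA livers. Only 9 of the 108 immunoglobulin genes had enough counts to be tested, and 96 had fewer than 50 counts over the 7 libraries. Of the 9, Ighm, Igkc and Igkv5-39 were called lower in H-TBA livers and 0 were called higher, with 6 below an unadjusted p of 0.05. The fitted log2 fold changes (H-TBA over L-TBA) were negative for all 9, with a median of -1.87 against 0.0049 over all tested genes. Without L-TBA 3, 10 of the 108 were tested, and 5 had negative and 5 positive fold changes with a median of 0.16. The added gene was Ighg3. Over the same 9 genes as before, 5 were negative and the median was -0.23. Without L-TBA 3, 0 of the 10 were called, with 3 below an unadjusted p of 0.05. In that comparison 9.69% of all tested genes were called higher and 7.3% lower. The count called lower was also 0 of 10 without H-TBA 2, 1 of 7 without H-TBA 3 and 1 of 9 without H-TBA 4. It was 4 of 10 without L-TBA 1 or L-TBA 2. Of each 4, 2 were called in the main fit (Ighm and Igkc), and the others were Ighg1 with Jchain or Iglc2. Over all genes, the fits without H-TBA 2, 3 and 4 called 1197 of 15098, 1207 of 15075 and 1113 of 15005 lower. Those without L-TBA 1 and 2 called 1035 of 15527 and 1155 of 15521 lower. With no low-count filter, 14 of the 84 genes with a count were called lower and 0 higher, against 7.31% of all genes called lower and 9.05% called higher there. Those 14 included Igkv2-112, Igkv6-20, Igkv6-29 and Ighv14-4, whose counts were mostly in L-TBA 3, so these calls rest on 1 library.

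Ighm encodes the constant region of IgM, the first antibody class a B cell makes. It had 399, 167, 602 and 287 counts in H-TBA livers 1 to 4, and 438, 896 and 4915 in L-TBA livers 1 to 3, which is 37.3, 16.3, 49.0 and 23.2 CPM against 37.8, 80.4 and 492 CPM. L-TBA 1 lay between H-TBA 1 and H-TBA 3, so the groups overlapped, and L-TBA 3 was 6.12 times the next library. Ighm fell in H-TBA livers, with a log2 fold change of -2.69 ± 0.69 (SE, as in all fold changes; edgeR adjusted p = 0.0164). Leaving out L-TBA 3 gave -0.91 ± 0.37 (edgeR adjusted p = 0.121), so the call was lost. It was also lost without H-TBA 2 or H-TBA 4, though nearly unmoved in size, at -2.48 and -2.56 (edgeR adjusted p = 0.0558 and 0.0577).

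Igkc, the kappa light chain constant gene, had 253, 92, 432 and 184 counts in H-TBA livers and 213, 365 and 2280 in L-TBA livers. In CPM these were 23.6, 8.99, 35.1 and 14.9 in H-TBA livers and 18.4, 32.8 and 228 in L-TBA livers. H-TBA 3 and H-TBA 1 were above L-TBA 1, and L-TBA 3 was 6.5 times the next library. The fitted log2 fold change, -2.16 ± 0.71, passed narrowly (edgeR adjusted p = 0.0481), and leaving out L-TBA 3 gave -0.30 ± 0.41 (adjusted p = 0.664). The call was lost too without any one of the 4 H-TBA libraries (edgeR adjusted p 0.0505 to 0.126), with values between -2.54 and -1.91.

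Iglc2, a lambda constant gene, was low in every library, with 6, 4, 14 and 10 counts in H-TBA livers and 12, 9 and 44 in L-TBA livers. L-TBA 1 and 2 lay inside the H-TBA range. The log2 fold change of -1.44 ± 0.59 did not pass (edgeR adjusted p = 0.102), nor did -0.32 ± 0.47 without L-TBA 3 (adjusted p = 0.693). Jchain, on chromosome 5, had 100, 27, 146 and 46 counts in H-TBA livers and 70, 114 and 608 in L-TBA livers. The CPM values were 9.34, 2.64, 11.9 and 3.72 in H-TBA livers and 6.05, 10.2 and 60.9 in L-TBA livers, with L-TBA 1 and 2 inside the H-TBA range. A log2 fold change of -1.87 ± 0.70 did not pass (edgeR adjusted p = 0.0759), and without L-TBA 3 it was -0.23 ± 0.48 (adjusted p = 0.787).

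The IgG genes showed the opposite order of the groups once L-TBA 3 was set aside. Their summed level was 12.4, 3.71, 12.2 and 5.91 CPM in H-TBA livers and 4.32, 4.58 and 124 CPM in L-TBA livers, from 133, 38, 150 and 73 counts against 50, 51 and 1234. Of the 4 H-TBA libraries, 1, 3 and 4 were above L-TBA 1 and 2, H-TBA 2 was below both, and L-TBA 3 was 9.95 times the next library. The ratio of the H-TBA mean to the L-TBA mean was 0.194 with all libraries and 1.92 without L-TBA 3.

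Ighg2c, the IgG2c class found in C57BL/6 mice in place of IgG2a, had 57, 9, 82 and 24 counts in H-TBA livers and 13, 25 and 450 in L-TBA livers. For Ighg2c the log2 fold change was -2.08 ± 0.98 with all libraries (edgeR adjusted p = 0.150) and 1.15 ± 0.67 without L-TBA 3 (adjusted p = 0.278), so the sign turned and neither value passed. Ighg1 encodes IgG1, a class linked to help from type 2 T cells. It had 18, 17, 24 and 9 counts in H-TBA livers and 17, 4 and 437 in L-TBA livers, where L-TBA 3 was 22.4 times the next library, H-TBA 3. Its log2 fold change was -3.31 ± 1.12 (edgeR adjusted p = 0.0531), and 0.69 ± 0.54 without L-TBA 3 (adjusted p = 0.425). Ighg2b had 48, 8, 34 and 37 counts in H-TBA livers and 18, 22 and 264 in L-TBA livers, with 3 H-TBA libraries above L-TBA 1 and 2. Its log2 fold change was -1.82 ± 0.84 (edgeR adjusted p = 0.140), and 0.65 ± 0.51 without L-TBA 3 (adjusted p = 0.422).

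Ighg3 had 10, 4, 10 and 3 counts in H-TBA livers and 2, 0 and 83 in L-TBA livers, too few to be tested with all libraries. Without L-TBA 3 it passed the low-count filter, and its log2 fold change of 2.61 ± 0.98 was not called (edgeR adjusted p = 0.0965); a gene at this depth passes that filter through the group in which it is higher. Ighe, the IgE constant gene, had 0 counts in all 7 libraries, which at these depths allows up to 3 counts in each.

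**Figure D2:**
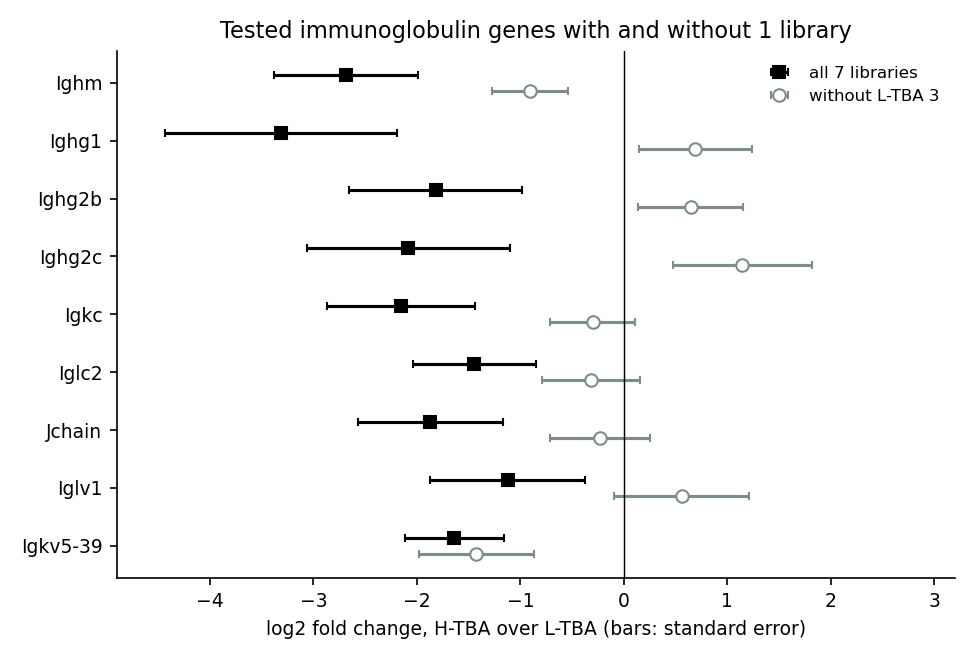
Log2 fold change (H-TBA over L-TBA, with SE) of the tested immunoglobulin genes, with all 7 libraries and without L-TBA 3. All 9 are below 0 with all libraries; without L-TBA 3 the IgG genes and Iglv1 lie above 0 and Ighm, Igkc, Jchain, Iglc2 and Igkv5-39 below it.

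Among the heavy constant genes, the share of counts in IgG rather than IgM was 25.0% in H-TBA 1 (95% exact Clopper-Pearson interval 21.4 to 28.9%), 18.5% in H-TBA 2 (13.5 to 24.5%), 19.9% in H-TBA 3 (17.1 to 23.0%) and 20.3% in H-TBA 4 (16.2 to 24.8%). It was 10.2% in L-TBA 1 (7.70 to 13.3%), 5.39% in L-TBA 2 (4.04 to 7.02%) and 20.1% in L-TBA 3 (19.1 to 21.1%). These intervals cover counting error only. All 4 H-TBA libraries lay above L-TBA 1 and 2 with intervals that did not meet theirs, while L-TBA 3 lay inside the H-TBA range, so the groups overlapped. The means were 20.9 ± 2.81% in H-TBA livers and 11.9 ± 7.48% in L-TBA livers (SD, n = 4 and 3), and this difference was not tested. H-TBA 2 had the lowest antibody sum and L-TBA 3 the highest, and their IgG shares were 18.5 and 20.1%.

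**Figure D3:**
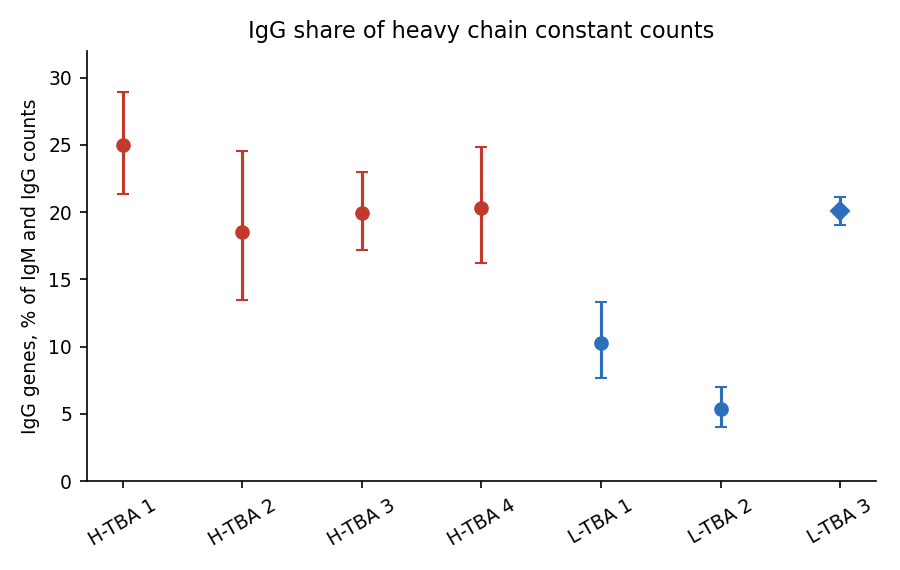
IgG share of heavy constant counts (percent, with exact 95% intervals) in each library. The 4 H-TBA libraries run between 18.5 and 25.0%, above L-TBA 1 and 2, and L-TBA 3 lies among them at 20.1%.

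Within IgG, Ighg1 took 13.5, 44.7, 16 and 12.3% of the counts in H-TBA livers and 34.0, 7.84 and 35.4% in L-TBA livers. The value in H-TBA 2 rests on 38 IgG counts. Per length, Ighg2c was the highest IgG gene in all 7 libraries, at 4.02, 0.663, 5.03 and 1.46 CPM per kilobase of annotated exon in H-TBA livers and 0.847, 1.69 and 34.0 in L-TBA livers. That order depends on its short annotated exon length, 1326 bases against 2592 for Ighg1, 2678 for Ighg2b and 2512 for Ighg3. In counts Ighg2c was below Ighg1 in H-TBA 2, below Ighg2b in H-TBA 4 and below Ighg1 and Ighg2b in L-TBA 1. Ighg1 had 0.649, 0.641, 0.753 and 0.281 CPM per kilobase in H-TBA livers and 0.567, 0.138 and 16.9 in L-TBA livers. The highest constant gene per length in every library was Igkc, at 16.9 to 66.0 CPM per kilobase in H-TBA livers and 34.6, 61.6 and 429 in L-TBA livers, and Ighm followed with 8.65 to 26.0 in H-TBA livers and 20.1, 42.6 and 261 in L-TBA livers.

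Ratios between genes of the same library set the total antibody level aside, and they were computed after the levels had been seen, as a description with no test. The count ratio of Igkc to Ighm was 0.634, 0.551, 0.718 and 0.641 in H-TBA livers and 0.486, 0.407 and 0.464 in L-TBA livers. These groups did not overlap, and L-TBA 3 lay between L-TBA 1 and L-TBA 2. The nearest values were those of H-TBA 2, from 92 and 167 counts, and L-TBA 1, and no counting interval was computed for them. How often other gene pairs separate the groups in this way was not computed. The ratio of Jchain to Ighm was 0.251, 0.162, 0.243 and 0.160 in H-TBA livers and 0.160, 0.127 and 0.124 in L-TBA livers, with H-TBA 4 and L-TBA 1 almost level. The ratio of Igkc to Iglc2, which is 1 lambda constant gene and not the whole lambda level, was 42.2, 23.0, 30.9 and 18.4 in H-TBA livers and 17.8, 40.6 and 51.8 in L-TBA livers, and these overlapped; Iglc2 had at most 14 counts in any library but L-TBA 3.

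The 89 V segments, which make the antigen-binding domains, followed the constant genes in total. They had 65, 21, 96 and 34 counts in H-TBA livers and 59, 107 and 571 in L-TBA livers, or 6.07, 2.05, 7.81 and 2.75 CPM against 5.10, 9.60 and 57.2 CPM. L-TBA 1 lay inside the H-TBA range, and the ratio of the H-TBA mean to the L-TBA mean was 0.195 with all libraries and 0.636 without L-TBA 3. Of the 89, 69 had a count and 2 could be tested. By locus, 18 of 27 Igh segments, 48 of 59 Igk segments and 3 of 3 Igl segments had a count.

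The kappa segments held most V counts, 41, 17, 45 and 20 in H-TBA livers and 50, 84 and 426 in L-TBA livers. Here all 4 H-TBA libraries were below all 3 L-TBA libraries in CPM, at 3.83, 1.66, 3.66 and 1.62 against 4.32, 7.54 and 42.7, although H-TBA 1 and L-TBA 1 were close. The separation depended on Igkv5-39, which had 0.244 CPM in H-TBA 3 and 1.12 CPM in L-TBA 1. With that segment taken out of the sums, L-TBA 1 lies below H-TBA 3. The heavy chain segments had 11, 0, 29 and 10 counts in H-TBA livers and 3, 13 and 101 in L-TBA livers, and the lambda segments 13, 4, 22 and 4 in H-TBA livers and 6, 10 and 44 in L-TBA livers; both overlapped between the groups.

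L-TBA 3 was high in a few V segments. Igkv6-20 had 5, 0, 1 and 1 counts in H-TBA livers and 1, 1 and 127 in L-TBA livers, so L-TBA 3 was 27.2 times the next library in CPM. Among V segments with a symbol it made up 22.2% of the V counts of L-TBA 3 (95% exact interval 18.9 to 25.9%) and 29.8% of its kappa V counts (25.5 to 34.4%). Its near copy Igkv6-29 had 1, 1, 0 and 0 counts in H-TBA livers and 0, 1 and 33 in L-TBA livers. Both segments share most of the bases printed above, so how the reads of L-TBA 3 divide between them is uncertain.

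Ighv14-4 had 2, 0, 3 and 1 counts in H-TBA livers and 0, 2 and 49 in L-TBA livers. In L-TBA 3 it was 48.5% of the counts of heavy chain V segments with a symbol (38.4 to 58.7%). Igkv2-112 had 38 counts in L-TBA 3 and 0 in each of the other 6 libraries, which is at least 13.0-fold higher than a floor of 3 counts per library. Igkv17-127 had 0, 0, 4 and 1 counts in H-TBA livers and 0, 6 and 27 in L-TBA livers. Ighv3-6 had 1, 0, 1 and 1 counts in H-TBA livers and 0, 5 and 21 in L-TBA livers. Ighv8-12 had 0, 0, 1 and 0 counts in H-TBA livers and 0, 1 and 13 in L-TBA livers. In these segments H-TBA livers and L-TBA 1 were at or near 0, and most of the counts were in L-TBA 3.

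Some segments did not have most of their counts in that library. Ighv7-1 had 1, 0, 8 and 0 counts in H-TBA livers and 0 in all 3 L-TBA livers, so 8 of its 9 counts were in H-TBA 3. Iglv2 had 3, 1, 9 and 0 counts in H-TBA livers and 1, 3 and 7 in L-TBA livers. Ighv6-3 had 2, 0, 6 and 0 counts in H-TBA livers and 0, 2 and 5 in L-TBA livers, and Iglv3 had 0 in all H-TBA livers and 1 in each L-TBA liver. Of the 84 genes with a count, 56 had their highest CPM in L-TBA 3, and of the 33 with at least 10 counts in all, 30 did. The others of those 33 were Igkv4-68, Igkv4-70 and Iglv2. The same share over all genes is not given here.

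Iglv1 and Igkv5-39 were the tested V segments. Iglv1 had 10, 3, 13 and 4 counts in H-TBA livers and 4, 6 and 36 in L-TBA livers, with a log2 fold change of -1.12 ± 0.75 (edgeR adjusted p = 0.312) and of 0.56 ± 0.65 without L-TBA 3 (adjusted p = 0.605). Igkv5-39 had 7, 1, 3 and 9 counts in H-TBA livers and 13, 14 and 18 in L-TBA livers, or 0.654, 0.0977, 0.244 and 0.728 CPM against 1.12, 1.26 and 1.80 CPM. It was the 1 of the 9 tested genes whose groups did not overlap, against 16.3% of all tested genes with every H-TBA library below every L-TBA library. The fitted difference was -1.64 ± 0.48 on the log2 scale (edgeR adjusted p = 0.0294), and -1.42 ± 0.56 without L-TBA 3 (adjusted p = 0.108). The call was lost as well without H-TBA 2, H-TBA 3, L-TBA 1 or L-TBA 2 (edgeR adjusted p 0.0521 to 0.0739). Igkv5-39 passed the low-count filter through its L-TBA libraries, so its lower level in H-TBA livers is in part a condition of having been tested.

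**Figure D4:**
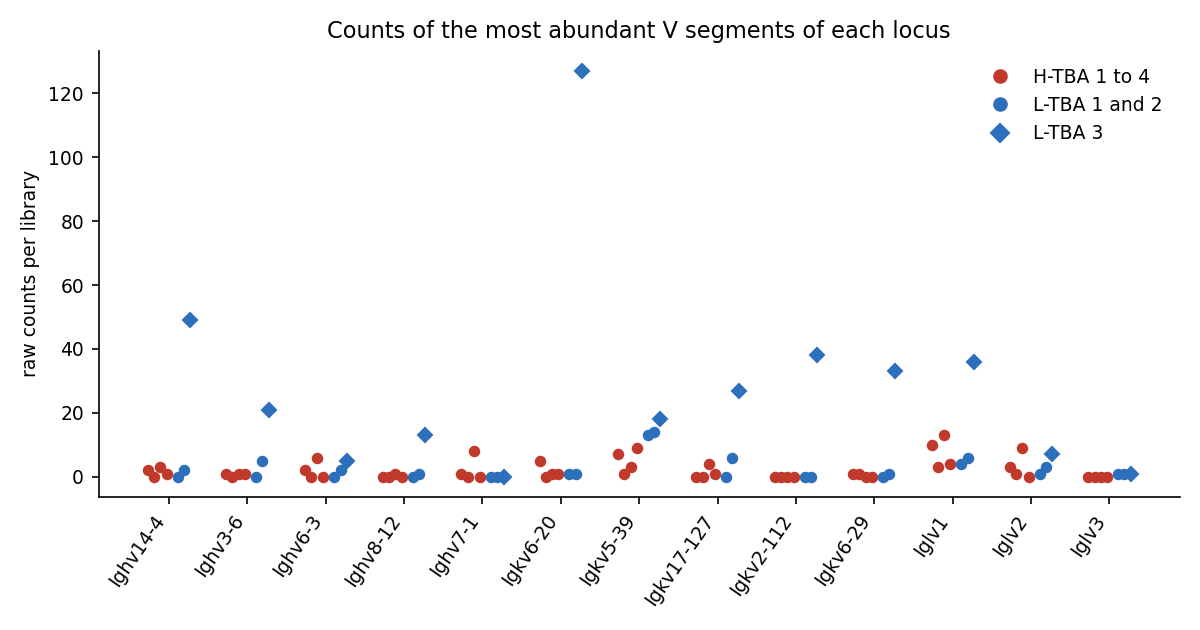
Raw counts of the most abundant V segments with a symbol in each library, with H-TBA libraries to the left of L-TBA libraries. The counts of Igkv6-20, Ighv14-4, Igkv2-112 and Igkv6-29 lie almost wholly in L-TBA 3, and those of Igkv5-39 are spread over all libraries.

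Among V segments with a symbol, the number seen depended on depth. Segments with a count numbered 32, 14, 35 and 20 in H-TBA livers and 27, 40 and 51 in L-TBA livers, following the V counts of each library. When each library was reduced to 21 V counts, the number in H-TBA 2, the expected number of segments was 14.9, 14, 14.2 and 13.8 in H-TBA livers and 14.1, 15.6 and 12.8 in L-TBA livers, with L-TBA 3 lowest and L-TBA 2 highest. The effective number of segments, the inverse Simpson index corrected for sampling, was 21.9, 21, 20.5 and 12.5 in H-TBA livers and 15.6, 27.5 and 12.8 in L-TBA livers. These values overlap between the groups, and H-TBA 4, where Igkv5-39 held 9 of 34 V counts, had a value near that of L-TBA 3. The measures leave out identifiers without a symbol, so the order of the libraries holds only for segments with one.

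The J segments, short coding pieces that join the V domain to its constant gene, were near 0. The 4 heavy chain J segments summed to 0, 4, 9 and 0 counts in H-TBA livers and 0, 1 and 20 in L-TBA livers. The 5 kappa J segments summed to 0, 2, 0 and 2 counts in H-TBA livers and 4, 1 and 5 in L-TBA livers. The diversity segment Ighd1-1 had no count.

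A screen chosen after L-TBA 3 had been seen asked which genes had at least 20 counts in 1 library and at least 3 times the CPM of the next library there, with a floor of 3 counts for the next. It found 5, 4, 1 and 1 genes in H-TBA libraries 1 to 4, and 1, 0 and 43 in L-TBA libraries 1 to 3. The 43 of L-TBA 3 comprised 16 immunoglobulin genes, 11 genes of the B cell and plasma cell lists, 9 identifiers without a symbol and 7 other named genes. The most abundant of those identifiers had 4, 9, 29 and 9 counts in H-TBA livers and 29, 76 and 411 in L-TBA livers. Whether such rows belong to the antibody loci was not tested, and the V sums, shares and segment numbers above leave them out. Among the B lineage genes were Pou2af1, a coactivator of antibody gene transcription, with 12, 7, 19 and 10 counts in H-TBA livers and 3, 11 and 118 in L-TBA livers, and Ms4a1 (CD20), with 2, 10, 20 and 8 counts in H-TBA livers and 8, 10 and 96 in L-TBA livers. Mzb1, a chaperone of antibody assembly, had 12, 6, 9 and 8 counts in H-TBA livers and 4, 8 and 59 in L-TBA livers.

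The 7 other named genes of L-TBA 3 were Cxcl13, Timd4, Marco, Acod1, Cd163, Chst3 and Siglecg, picked out by that screen and not by a list. Cxcl13, the chemokine of B cell follicles, had 2, 1, 1 and 4 counts in H-TBA livers and 2, 1 and 45 in L-TBA livers. Marco, a scavenger receptor of macrophages, had 31, 18, 20 and 60 counts in H-TBA livers and 13, 10 and 202 in L-TBA livers, and Timd4, a phosphatidylserine receptor of resident macrophages, had 6, 8, 1 and 15 counts in H-TBA livers and 15, 6 and 86 in L-TBA livers. Their part in the immunoglobulin difference was not tested. H-TBA 1 also stood apart in 5 genes, with Dmbt1 at 445 counts against at most 4 in any other library, but in 0 immunoglobulin genes.

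**Figure D5:**
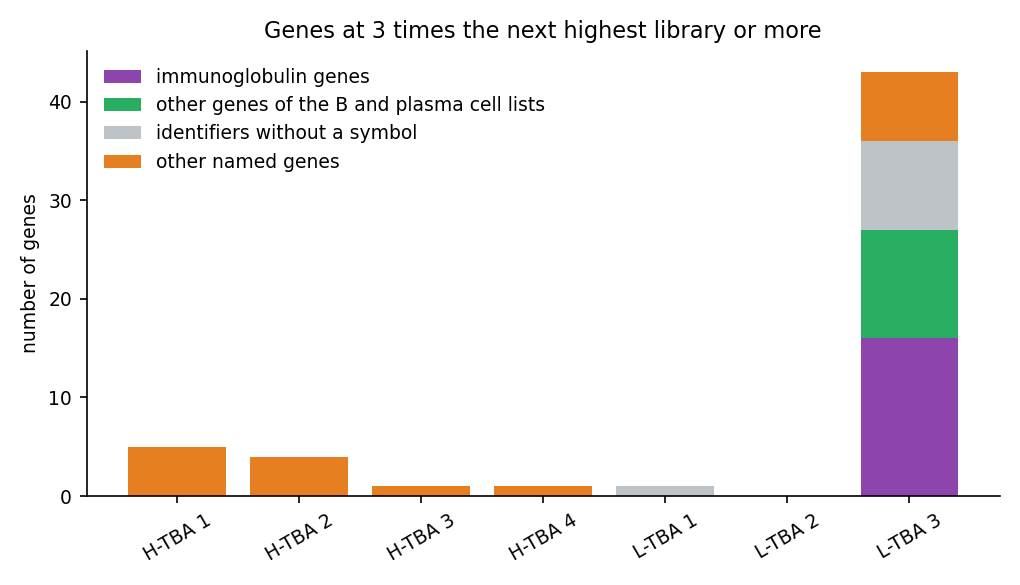
Number of genes in which 1 library had at least 20 counts and at least 3 times the CPM of the next library, for each library, split into immunoglobulin genes, other B and plasma cell genes and the rest. L-TBA 3 has 43 such genes, 16 of them immunoglobulin genes, and no other library has more than 5.

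Most genes of the B cell and macrophage lists were highest in L-TBA 3, and most T cell genes were not. The share of all genes highest in L-TBA 3 is not given here. The B cell list of 24 genes summed to 52.6, 60.7, 74.5 and 67.5 CPM in H-TBA livers and 67.4, 71.1 and 161 CPM in L-TBA livers, and 21 of its 24 genes were highest in L-TBA 3. The 12 T cell genes summed to 15.3, 20.8, 25.0 and 33.0 CPM in H-TBA livers and 16.6, 21.8 and 25.8 CPM in L-TBA livers, with 2 of 12 highest in L-TBA 3. Of the 12, 0 were called either way, beside 23.9% of all tested genes. Cd3e, a T cell receptor chain, had a log2 fold change of 0.48 (edgeR adjusted p = 0.186). The 10 macrophage genes summed to 602, 597, 618 and 700.0 CPM in H-TBA livers and 689.6, 679.5 and 948 CPM in L-TBA livers, with 8 of 10 highest in L-TBA 3. The tissue label was checked with albumin (Alb) at 37121 ± 2106 CPM in H-TBA livers and 41021 ± 4299 CPM in L-TBA livers.

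Of the 24 B cell genes, 16 were tested, 2 were called lower and 1 higher in H-TBA livers, close to the 10.7% lower and 13.1% higher of all tested genes, with a median log2 fold change of -0.76 over the tested ones, and of 0.08 without L-TBA 3. Ms4a1 had a log2 fold change of -2.05 ± 0.86 (edgeR adjusted p = 0.108), and of 0.13 without L-TBA 3. Bank1, a B cell scaffold protein, fell in H-TBA livers with a log2 fold change of -1.56 ± 0.47 (edgeR adjusted p = 0.0325), a call lost without L-TBA 3, H-TBA 2 or H-TBA 4 (adjusted p = 0.175, 0.064 and 0.0917). Cd72, an inhibitory receptor of B cells and some macrophages, fell with -0.72 ± 0.12 (edgeR adjusted p = 0.00141) and passed without L-TBA 3 too. Blnk, an adaptor of B cell receptor signalling that macrophages also express, rose with 0.52 ± 0.17 (edgeR adjusted p = 0.0438), and passed only when all libraries or all but H-TBA 1 were kept (adjusted p 0.0619 to 0.114 without any other).

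Of 20 plasma cell and antibody secretion genes, 17 were tested, 7 fell and 1 rose in H-TBA livers, beside 10.7% lower and 13.1% higher over all tested genes, with a median log2 fold change of -0.27. Without L-TBA 3, 4 fell and 1 rose, beside 7.3% lower and 9.69% higher over all tested genes. Most of these genes serve the endoplasmic reticulum of any secreting cell, hepatocytes included. Pdia4, a disulfide isomerase, fell with a log2 fold change of -0.71 ± 0.10 (edgeR adjusted p = 0.000784), and the chaperones Hsp90b1 and Creld2 fell with -0.54 and -0.84 (edgeR adjusted p = 0.00521 and 0.00309). Derl3, a factor of protein degradation in that compartment, had 4, 8, 4 and 5 counts in H-TBA livers and 15, 13 and 15 in L-TBA livers and fell with -1.49 ± 0.37 (edgeR adjusted p = 0.0140), a call lost without L-TBA 3 (adjusted p = 0.0551). No H-TBA library reached 10 counts of Derl3, so it was tested through its L-TBA libraries. Sdc1 (CD138), a plasma cell marker that hepatocytes also express, rose with 0.62 ± 0.09 (edgeR adjusted p = 0.00103), at 362 ± 19.1 CPM in H-TBA livers and 235 ± 17.3 CPM in L-TBA livers. Xbp1, a transcription factor of secretory cells, fell with -0.29 (edgeR adjusted p = 0.0422).

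Several receptors that carry or bind antibody were lower in H-TBA livers, and most of those calls did not need L-TBA 3. Of 12 listed, 9 were tested, 5 fell and 0 rose, beside 10.7% lower and 13.1% higher over all tested genes, with a median log2 fold change of -0.36. Without L-TBA 3, 4 fell, beside 7.3% lower over all tested genes. Pigr, which takes IgA and IgM across epithelia into bile, had 1009.5, 810.3, 706 and 803 CPM in H-TBA livers and 1184, 1415 and 1380 CPM in L-TBA livers, with no overlap. Its log2 fold change was -0.67 ± 0.13 (edgeR adjusted p = 0.00382), and -0.65 without L-TBA 3 (adjusted p = 0.0158). Cd5l, a macrophage protein that binds IgM in the blood, had 92.9, 105, 68.2 and 122 CPM in H-TBA livers and 201, 243 and 303 CPM in L-TBA livers. It fell with -1.36 ± 0.18 (edgeR adjusted p = 0.000604), and with -1.20 without L-TBA 3 (adjusted p = 0.00239). The IgG receptors Fcgr4, Fcgr1 and Fcgr2b fell with -1.06, -0.72 and -0.36 (edgeR adjusted p = 0.00331, 0.00531 and 0.0198), and Fcgrt, which protects IgG from breakdown, had -0.19 (adjusted p = 0.128). All 10 macrophage genes were tested, and 2 were called lower and 0 higher, beside 10.7% lower and 13.1% higher over all tested genes. The 2 were Clec4f and Adgre1, with -1.54 and -0.60 (edgeR adjusted p = 0.00261 and 0.0171). Adgre1 no longer passed without L-TBA 3 (edgeR adjusted p = 0.0731). The part of macrophage RNA in the receptor values was not tested.

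Of 19 genes for signals that recruit or sustain B cells, 18 were in the table, 7 were tested, 2 rose and 0 fell, beside 13.1% higher and 10.7% lower over all tested genes. Ltb, a lymphotoxin chain, had 6.73, 12.1, 17.4 and 15.7 CPM in H-TBA livers and 5.10, 4.94 and 7.61 CPM in L-TBA livers, and rose with a log2 fold change of 1.16 ± 0.29 (edgeR adjusted p = 0.0154), although H-TBA 1 lay below L-TBA 3; the call was lost without L-TBA 1 or L-TBA 2 (adjusted p = 0.063 and 0.0609). Cxcr4, the receptor that holds plasma cells in marrow, rose with 0.71 ± 0.19 (edgeR adjusted p = 0.0186), a call lost without L-TBA 1 or L-TBA 2 (adjusted p = 0.0752 and 0.0631). Tnfsf13b (BAFF), a survival factor of B cells, was not tested and had 11, 7, 13 and 9 counts in H-TBA livers and 6, 4 and 5 in L-TBA livers. The listed bile duct genes rose in 10 of 10 (Krt19 log2 fold change 3.03), and their part in these values was not tested. Of 10 genes of recombination, switching and the surrogate light chain, 3 were tested and 0 were called either way; Rag1 and Rag2, the recombinase genes, had 0 counts in all 7 libraries, which allows up to 3 counts in each.

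Antibody gene promoters carry the octamer ATGCAAAT, or its reverse complement ATTTGCAT, which Oct factors bind together with Pou2af1. It was searched on both strands from 250 bases before to 50 bases after each start in the RefSeq promoter table. Jchain, the one immunoglobulin gene with an entry there, had no match, against 532 of 27025 promoters (1.97%) in all. By list, 1 of 18 B cell genes, 0 of 18 plasma cell genes and 1 of 6 bile duct genes had a match. So did 1 of 9 genes of recombination, switching and the surrogate light chain. No match says only that these letters are not in that window.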

How the data were processed

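The authors deposited raw whole-number counts per Ensembl gene. Per the submitters' processing notes, the tools were TopHat2 2.0.11, CASAVA and DESeq2 1.18.1, their roles unstated, and the build was mm9; how reads were assigned to genes, and whether by strand, is not given in the sources used here. Symbols, exon lengths and segment sequences came from GENCODE M21 (GRCm38), matched on identifier; 32897 of 37620 rows had a symbol, and no coordinates are given because the builds differ. The immunoglobulin genes and gene lists were chosen with earlier results of these data known.

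Counts were fitted over all genes with edgeR 4.0.16 (R 4.3.3), using TMM scaling, filterByExpr (minimum count 10, minimum total 15) and the quasi-likelihood test of H-TBA against L-TBA with no covariate. This left 15249 of 23697 genes with a count, of which 2003 were called higher and 1635 lower; unscaled library totals gave 3117 and 832. Alternatives were DESeq2 1.42.0, limma-voom 3.58.1 with quality weights, other scalings and filters, a robust fit, a replicate block and leaving out each library. The tests were checked on simulated data without an outlying library, so that check does not bear on calls that rest on a single library. No pair of libraries agreed within sampling noise (lowest chi-square per degree of freedom 5.29). Named were all constant genes and Jchain, the V segments of highest mean CPM (5 in Igh, 5 in Igk, 3 in Igl), tested genes of smallest adjusted p, and per list the 4 smallest adjusted p below 0.05 plus the first 2 genes; Pou2af1, Xbp1, Fcgr2b and the genes of the screen for libraries that stand apart were named after their values were seen. Some named genes are not reported here.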

Additional observations from a re-analysis of the deposited data

Results flagged for a closer look

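Of 43 values screened over the 4 H-TBA libraries, 4 had a library whose gap to the others was large for the range of the group. The rule's chance rate of about 1 of 20 groups is meant for continuous values. It does not hold for genes with counts at or near 0, such as the V segments below. Ighv3-6 was at 0.0 CPM in H-TBA 2, below 3 libraries with 1 count each. Ighv8-12 was at 0.0813 CPM in H-TBA 3, which is 1 count, and at 0 in the others. Ighv7-1 was at 0.651 CPM in H-TBA 3, from 8 counts. Ighg1 made up 44.7% of the IgG counts of H-TBA 2, from 17 of 38 counts, against 12.3 to 16% in the other H-TBA libraries.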

How the results depend on the processing

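The calls on immunoglobulin genes were not stable. Against 3 of 9 called lower, DESeq2 called 5 of 79 fitted, limma-voom 1 of 9 and no filter 14 of 84. A stricter filter called 1 of 4, a robust fit 1 of 9 and a replicate block 0 of 9. Over all genes, DESeq2 called 1576 of 23685 lower, limma-voom 2077 of 15249 and no filter 7.31%. The stricter filter called 1353 of 11835 lower, the robust fit 1650 of 15249 and the block 754 of 15249. Leaving out 1 library gave 0 to 4, with 0 without H-TBA 2 or L-TBA 3, and 1 without H-TBA 3 or H-TBA 4. Several of the 14 called with no filter had most of their counts in L-TBA 3. No immunoglobulin gene was called higher under any of the 16 alternatives. Over them the log2 fold change of Ighm ran between -3.18 and -0.91 (edgeR, DESeq2 or limma adjusted p 0.000864 to 0.122) and that of Igkc between -2.65 and -0.30 (0.00684 to 0.664).

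Without L-TBA 3 the sign turned for several genes, whose log2 fold changes over single libraries left out ran between -3.90 and 0.69 for Ighg1, -2.34 and 0.65 for Ighg2b, -2.65 and 1.15 for Ighg2c, -1.62 and 0.56 for Iglv1, and -2.56 and 0.13 for Ms4a1. The log2 ratio of the IgG sum ran between -2.90 and 0.94, against -2.37 with all libraries. The other log2 ratios of summed levels, H-TBA over L-TBA, were -2.42 with all libraries for all immunoglobulin genes (-2.92 to -0.53 over libraries left out), -2.69 for Ighm (-3.19 to -0.91), -2.17 for Igkc (-2.66 to -0.31) and -2.36 for V segments (-2.84 to -0.65), and each value nearest 0 was the one without L-TBA 3. The IgG share stayed higher in H-TBA livers, by 5.78 to 13.1 percentage points.

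Over all genes, library totals gave 832 lower and 3117 higher and moved the median log2 fold change to 0.16, with the log2 fold change of Alb at 0.012 and of Apoa1 at 0.046, against -0.14 and -0.11; the 9 tested immunoglobulin genes stayed negative there. The block, under which Pigr no longer passed (edgeR adjusted p = 0.0521), gave 754 lower and 1166 higher, and single libraries left out gave 1035 to 2123 lower and 1470 to 2429 higher. The labels do not state that replicate numbers pair the libraries, and H-TBA 4 has no partner. Same-numbered libraries had correlations of -0.103, -0.0589 and -0.0627 in their deviations from the group means. With so few libraries, such correlations cannot settle whether the libraries were paired. Causes were not tested. Depth limits most of these genes, 51 of the 108 having 1 to 9 counts in all and 24 none.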
